A study of Homo sapiens with 6 samples.

Results

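Caveolae are small flask-shaped pits of the plasma membrane, and flotillins mark a separate kind of cholesterol-rich membrane domain, or raft. The genes described here are the 8 of the 20811 genes in the table whose symbols are CAV1, CAV2, PTRF, SDPR, PRKCDBP, FLOT1, FLOT2 and EHD2, and all 8 were found. They were matched by symbol. PTRF, SDPR and PRKCDBP are older symbols of CAVIN1, CAVIN2 and CAVIN3.

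The study compared derivatives of HuCCT1, a human intrahepatic cholangiocarcinoma (iCCA) cell line, to learn what an increase in CD90 changes in these cells. HuCCT1/CD90+ cells carried a lentivirus with human THY1, the gene of CD90, together with a CMV promoter and GFP. HuCCT1/CD90- cells carried the blank control lentivirus, with CMV, GFP and a puromycin marker. Both viruses were used at a multiplicity of infection (MOI) of 40, both lines grew in the same medium, and 3 libraries were made from each line. The sources used here do not say whether a line was a clone or a pool, or whether its libraries came from separate cultures, so the p-values measure only the spread between these libraries, and the effect of CD90 cannot be told apart from other differences between the lines. A lower RNA level in a bulk sample can mean fewer expressing cells or less RNA per cell, which cannot be told apart either.

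Caveolae are built from caveolins, hairpin-shaped proteins that insert into the inner leaflet of the membrane, and from cavins, which bind from the cytoplasm and form the coat. EHD2, an ATPase, gathers at the neck of the pit and holds it at the surface. Flotillins assemble at the inner face of rafts without caveolins and take part in endocytosis and signalling. CD90 itself is held in the outer leaflet by a glycosylphosphatidylinositol (GPI) anchor, and GPI-anchored proteins gather in such domains.

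RNA was read with the AmpliSeq panel, in which each gene is covered by 1 amplicon, and values are RPM, read counts scaled to a common library total. An RPM value can be compared for the same gene between libraries, but amplicons differ in yield, so levels of different genes were not compared. The libraries held 8587634 to 10551516 reads, and 3 reads, taken as the detection floor, were worth 0.284 to 0.349 RPM. THY1 was at 0, 0.107 and 0 RPM in HuCCT1/CD90- libraries 1, 2 and 3 and at 46.6, 51.8 and 73.8 RPM in HuCCT1/CD90+ libraries 1, 2 and 3, at least 179-fold higher against the floor, as the labels state. Of 7 biliary epithelial markers, 5 were differentially expressed genes (DEGs), all higher in HuCCT1/CD90+ cells (3 with the replicate number as a block, without KRT8 and KRT19), and their summed level was 8210 to 9314 RPM in the HuCCT1/CD90- libraries, against 10974 to 11722 RPM in the other line.

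Among the 8 genes, the caveolin pair was higher and FLOT2 lower in HuCCT1/CD90+ cells, with no overlap between the lines. The estimates for PTRF, PRKCDBP, EHD2 and FLOT1 were closer to 0, and SDPR was too variable to place. In the limma test across all 20811 genes, with a DEG defined by a Benjamini-Hochberg adjusted p of at most 0.05, 1 of the 8 passed, CAV2. This is 12.5% of the 8 genes, against 18.9% of all genes (9.41% higher and 9.52% lower in HuCCT1/CD90+ cells) and 29.4% of those averaging 1 RPM or more. CAV1 and FLOT2 lay just outside the threshold. On simulated data this fit, which keeps genes without reads, called far fewer of the changed genes than the filtered limma fit and count tests. It also made more false calls. The simulation changed a far smaller share of genes than passed here and gave all genes the same dispersion. It therefore does not show how many changes were missed in these data. Which genes passed depended on the fit. A DEG or a missed threshold, in any list, is best read beside the count tests and the replicate block. In the count tests on recovered reads CAV1, CAV2 and FLOT2 all passed, 3 of 8, where 44.4% of genes tested passed with edgeR after filtering, 27.6% with edgeR unfiltered and 37% with DESeq2. The same 3 passed limma restricted to genes averaging 1 RPM or more, as 41.7% of genes did, and met a fold of 1.5 with an unadjusted p of at most 0.05, as 20.1% of all genes did. The lines did not overlap for 4 of the 8 genes (CAV1, CAV2, PTRF and FLOT2), against 35% of all genes and 52.6% of those averaging 1 RPM or more. The median log2 fold change of the 8 genes was -0.14 and that of all genes was 0. These shares do not set the 8 genes apart from the rest of the table.

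**Figure D1:**
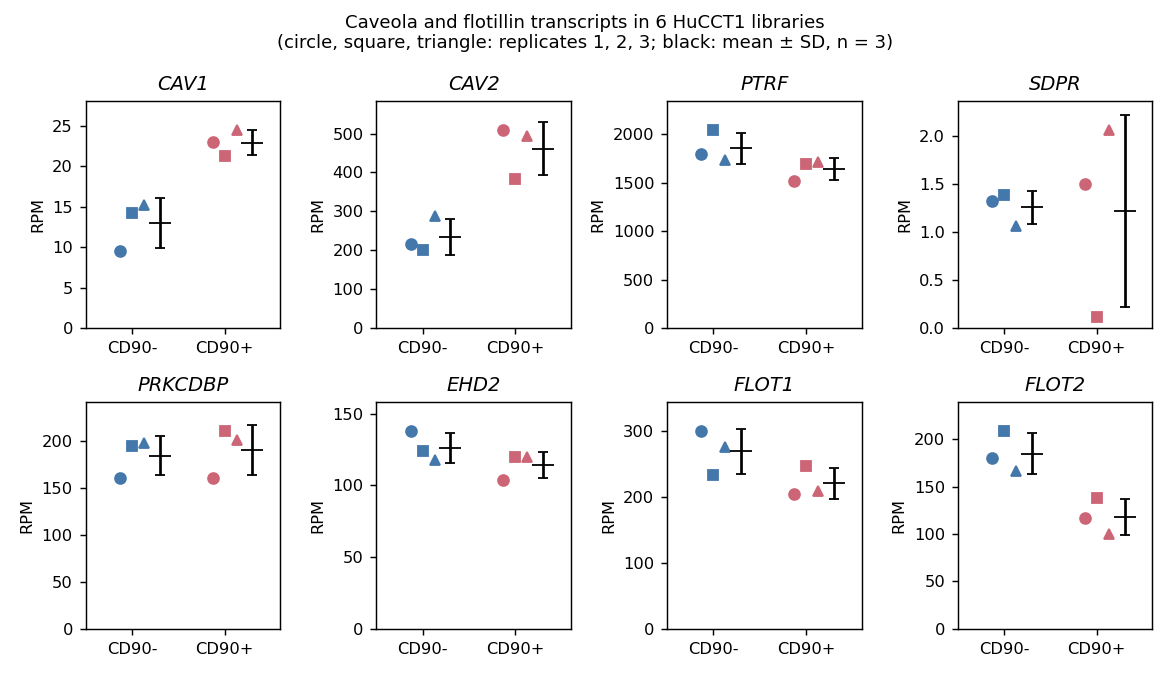
RPM of each gene in the 3 HuCCT1/CD90- (blue) and 3 HuCCT1/CD90+ (red) libraries, on linear axes that start at 0, with circles, squares and triangles for libraries 1, 2 and 3 and black bars for mean ± SD. CAV1, CAV2 and FLOT2 separate the lines clearly, while the bar of SDPR in HuCCT1/CD90+ cells is wide because library 2 held 1 read.

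CAV1 encodes caveolin-1, without which most non-muscle cells form no caveolae, and CAV2 encodes caveolin-2, its partner in mixed oligomers. The genes lie side by side on the plus strand of chromosome 7 (GRCh38, GENCODE 29), CAV2 at chr7:116287380-116508541 and CAV1 at chr7:116524785-116561184. The promoter windows of these genes and of FLOT2 are printed because they were the 3 genes whose lines stood furthest apart, a choice made after their values were seen. Each window holds the 250 bases upstream of a RefSeq transcription start on GRCh38.p14, the farthest upstream start where several are listed, and capitals mark GGGCGG, the core of the GC box, on either strand. CAV2 is chr7:116499488-116499737 (plus strand), CAV1 is chr7:116524759-116525008 (plus strand) and FLOT2 is chr17:28897734-28897983 (minus strand). The GENCODE genes can begin farther upstream than the RefSeq starts, so all 250 bases of the CAV2 window and 224 of the CAV1 window lie inside the gene spans given above, and 0 of the FLOT2 window.
CAV2: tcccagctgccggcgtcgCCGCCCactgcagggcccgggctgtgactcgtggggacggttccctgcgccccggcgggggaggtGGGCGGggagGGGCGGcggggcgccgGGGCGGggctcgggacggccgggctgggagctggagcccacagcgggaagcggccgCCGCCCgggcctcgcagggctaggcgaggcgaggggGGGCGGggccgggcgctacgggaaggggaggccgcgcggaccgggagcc
CAV1: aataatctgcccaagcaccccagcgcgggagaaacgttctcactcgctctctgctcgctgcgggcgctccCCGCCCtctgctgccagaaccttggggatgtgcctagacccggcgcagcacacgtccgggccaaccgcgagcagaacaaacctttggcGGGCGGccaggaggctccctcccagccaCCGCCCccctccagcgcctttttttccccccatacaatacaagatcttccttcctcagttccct
FLOT2: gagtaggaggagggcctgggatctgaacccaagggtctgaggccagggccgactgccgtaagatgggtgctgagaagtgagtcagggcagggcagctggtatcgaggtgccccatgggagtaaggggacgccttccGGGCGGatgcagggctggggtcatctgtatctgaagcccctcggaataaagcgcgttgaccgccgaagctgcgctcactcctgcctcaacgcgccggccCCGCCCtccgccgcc
The GGGCGG match occurred 6 times in the CAV2, 3 times in the CAV1 and 2 times in the FLOT2 window, and 42.6% of 35116 promoters hold it at least once. In all, 4 motifs, also chosen after the values were seen, were searched on either strand, and the other three had 0 matches in these windows. The TATA box core TATAAA occurs in 10.7% of promoters. The TEAD core GGAATG occurs in 11.9% of promoters. The CCAAT box, searched by those letters, occurs in 32% of promoters. The G and C share was 83.2% for CAV2, 63.6% for CAV1 and 66% for FLOT2, against a median of 58% over all promoters. The matches are letters only, and they occur both in genes that were higher and in a gene that was lower in HuCCT1/CD90+ cells.

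CAV2 stood at 216, 200.4 and 288 RPM in HuCCT1/CD90- libraries 1, 2 and 3 and at 508, 383 and 493 RPM in HuCCT1/CD90+ libraries 1, 2 and 3. All HuCCT1/CD90+ libraries were above all HuCCT1/CD90- libraries. Its mean was 235 ± 46.7 RPM in HuCCT1/CD90- and rose to 461 ± 68.2 RPM (SD, n = 3 per line). The difference was 0.98 in log2 fold change, with a standard error (SE) of 0.19 and a 95% interval from 0.46 to 1.497 (limma adjusted p = 0.035). On the fold scale this was 1.97, with an interval from 1.38 to 2.82. With the replicate number as a block the adjusted p was 0.055.

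CAV1 was read far less deeply, with 100 to 225 reads per library. Its values were 9.48, 14.2 and 15.2 RPM in HuCCT1/CD90- libraries 1, 2 and 3 and 22.9, 21.3 and 24.4 RPM in HuCCT1/CD90+ libraries 1, 2 and 3. These ranges did not overlap, and HuCCT1/CD90- library 1 was the lowest of the 6. The log2 fold change was 0.80 with an SE of 0.19 and an interval from 0.28 to 1.31, a fold of 1.74, which missed the threshold (limma adjusted p = 0.058). On recovered reads the adjusted p was 0.0023 with edgeR after filtering and 0.00075 with DESeq2, and limma over genes averaging 1 RPM or more gave 0.0052. With the replicate block it was 0.12. The log2 ratio of CAV2 to CAV1 was 4.08 ± 0.33 in HuCCT1/CD90- and 4.26 ± 0.15 in HuCCT1/CD90+ libraries (SD, n = 3 each), a difference of 0.18 (SE 0.21) that was within the spread between libraries (exact permutation p = 0.6, two-sided, and 0.72 adjusted over 6 pairs). It was 0.0034 without HuCCT1/CD90- library 2 and 0.33 without HuCCT1/CD90- library 1. Between libraries of the same number it was positive in 3 of 3 pairs, at 0.041, 0.38 and 0.13 (exact sign-flip permutation p = 0.25, the smallest that 3 pairs allow).

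**Figure D2:**
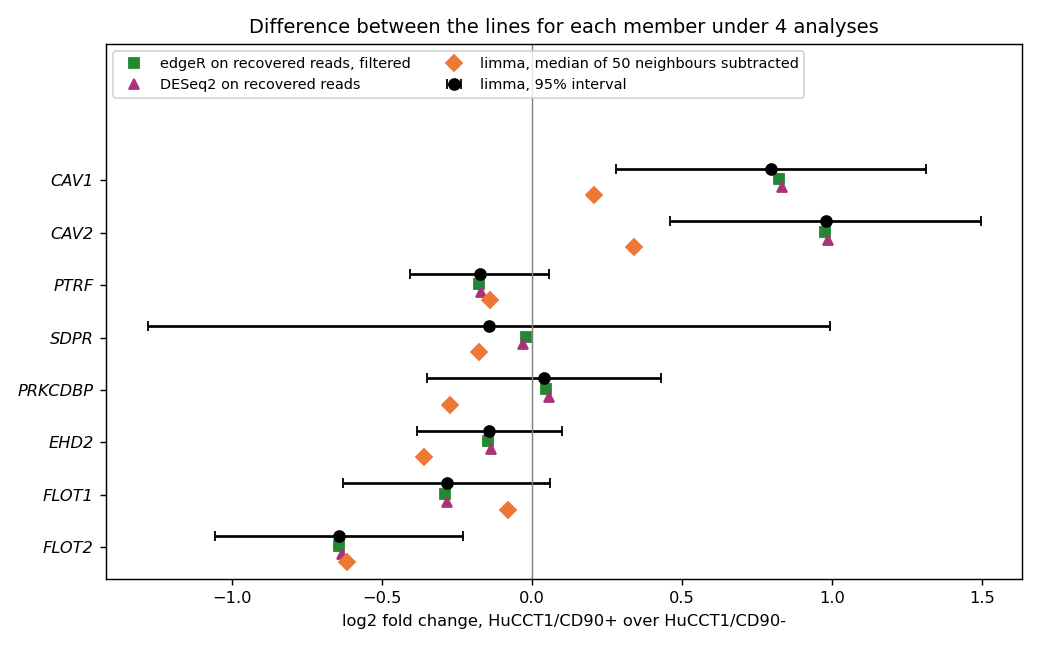
Log2 fold change of HuCCT1/CD90+ over HuCCT1/CD90- for each gene, with black circles and bars for limma and its 95% interval, green squares for edgeR after filtering, purple triangles for DESeq2 and orange diamonds for limma after the median of 50 chromosomal neighbours was taken away. The diamonds of CAV1 and CAV2 lie at 0.21 and 0.34, below the other estimates, and that of FLOT2 stays at -0.62.

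The genes around the caveolin pair were higher in HuCCT1/CD90+ cells as well. On the side before CAV2, TES, which encodes a focal adhesion protein, had a log2 fold change of 0.86 (SE 0.12, limma adjusted p = 0.013) and MDFIC, a regulator of transcription, 0.49 (SE 0.13, adjusted p = 0.069), while TFEC had at most 3 reads in any library. On the side after CAV1, MET, the receptor of hepatocyte growth factor, had 1.05 (SE 0.16, adjusted p = 0.017). CAPZA2, an actin capping subunit, had 1.23 (SE 0.25, adjusted p = 0.037), and ST7 had 1.36 (SE 0.19, adjusted p = 0.014). The differences of CAV1 and CAV2 thus lay among those of the genes beside them.

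Over a longer stretch, of the 50 genes nearest to CAV1 that averaged 10 RPM or more, 47 had a positive log2 fold change, 24 were DEGs that rose and 0 were DEGs that fell. Of all genes 9.41% were DEGs that rose and 9.52% DEGs that fell. Of genes averaging 1 RPM or more 29.4% were DEGs in either direction, with a median log2 fold change of -0.0086. The shares among genes averaging 10 RPM or more were not counted. The median of the 50 genes was 0.62 and 17 of them exceeded CAV1. For CAV2 the same counts were 48, 24 and 0, with a median of 0.64 and 12 genes above CAV2. Relative to this median, the log2 fold change was 0.21 for CAV1 (limma adjusted p = 0.59) and 0.34 for CAV2 (adjusted p = 0.36), and 0 of the 8 genes passed, against 16.1% of all genes. What raises this stretch of chromosome 7 was not tested.

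**Figure D3:**
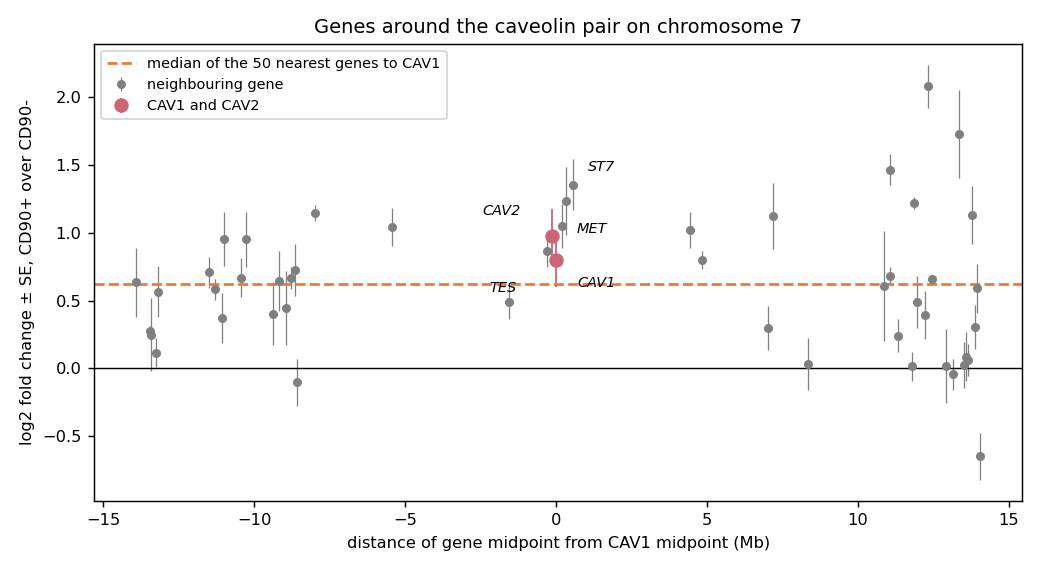
Log2 fold change with its SE for CAV1, CAV2 (red) and the other genes among the 50 nearest to CAV1 (grey), by distance of gene midpoints from CAV1 in Mb. Nearly all points lie above 0, and the caveolin pair lies above the dashed median of 0.62 and below ST7.

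PTRF encodes cavin-1, which every caveola coat needs, and lies at chr17:42402452-42423517 on the minus strand. It stood at 1793, 2039 and 1734 RPM in HuCCT1/CD90- libraries 1, 2 and 3 and at 1515, 1695 and 1717 RPM in HuCCT1/CD90+ libraries 1, 2 and 3. The lines did not overlap, although HuCCT1/CD90- library 3 and HuCCT1/CD90+ library 3 nearly met. Its log2 fold change was -0.17 (SE 0.087) with an interval from -0.41 to 0.057 (limma adjusted p = 0.27), and -0.10 without HuCCT1/CD90- library 2. The interval leaves out a rise of the size estimated for either caveolin. The log2 ratio of PTRF to CAV1 was 7.07 ± 0.34 in HuCCT1/CD90- and 6.10 ± 0.13 in HuCCT1/CD90+ libraries (SD, n = 3 each), lower by 0.97 on the log2 scale (SE 0.21) without overlap (exact permutation p = 0.1, two-sided, and 0.2 adjusted over 6 pairs). The smallest p that 3 against 3 libraries allow is 0.1, so this test could not reach 0.05.

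PRKCDBP encodes cavin-3, a coat subunit that binds protein kinase C delta, at chr11:6318946-6320647 on the minus strand. Its values were 160.3, 195 and 197 RPM in HuCCT1/CD90- libraries 1, 2 and 3 and 159.8, 209.8 and 200.1 RPM in HuCCT1/CD90+ libraries 1, 2 and 3. The ranges overlapped, and the lowest library of each line was library 1. PRKCDBP had a log2 fold change of 0.042 (SE 0.15, interval from -0.35 to 0.43, limma adjusted p = 1). Its sign turned in 4 alternatives, to between -0.054 and -0.00042 without HuCCT1/CD90- library 1 or HuCCT1/CD90+ library 2 or 3 and to -0.27 relative to its neighbours. The log2 ratio of PRKCDBP to PTRF differed by 0.22 (SE 0.12, exact permutation p = 0.2, two-sided, and 0.3 adjusted over 6 pairs), and by 0.14 without HuCCT1/CD90- library 1. Between libraries of the same number it was 0.24, 0.37 and 0.035, positive in 3 of 3 pairs (exact sign-flip permutation p = 0.25).

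SDPR encodes cavin-2, a phosphatidylserine-binding coat subunit, at chr2:191834302-191847255 on the minus strand, and was close to the detection floor. It stood at 1.33, 1.39 and 1.07 RPM in HuCCT1/CD90- libraries 1, 2 and 3, or 14, 13 and 11 reads. It stood at 1.501, 0.116 and 2.06 RPM in HuCCT1/CD90+ libraries 1, 2 and 3, or 14, 1 and 19 reads. Library 2 of HuCCT1/CD90+ was the lowest and library 3 the highest of all 6, and the lines overlapped. The log2 fold change was -0.14 (SE 0.43) with an interval from -1.28 to 0.99 (limma adjusted p = 1), and it turned to 0.29 without HuCCT1/CD90+ library 2. The interval takes in changes of about the size seen for CAV2 in either direction. The log2 ratio of SDPR to PTRF differed by 0.031 (SE 0.46, exact permutation p = 1, two-sided, and 1 adjusted over 6 pairs).

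EHD2, at chr19:47713343-47743134 on the plus strand, stood at 137.8, 124 and 117 RPM in HuCCT1/CD90- libraries 1, 2 and 3 and at 103.9, 119.6 and 119.8 RPM in HuCCT1/CD90+ libraries 1, 2 and 3. The ranges overlapped. EHD2 had a log2 fold change of -0.14 (SE 0.090) with an interval from -0.38 to 0.099 (limma adjusted p = 0.40), which was -0.078 without HuCCT1/CD90- library 1 and -0.074 without HuCCT1/CD90+ library 1. Relative to its neighbours, whose median was 0.22, it was -0.36 (limma adjusted p = 0.070). The log2 ratio of EHD2 to CAV1 was lower by 0.94 (SE 0.28) in HuCCT1/CD90+ libraries, without overlap between the lines (exact permutation p = 0.1, two-sided, and 0.2 adjusted over 6 pairs). The PTRF and EHD2 ratios share CAV1 as denominator.

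FLOT2 encodes flotillin-2, the partner of flotillin-1 in flotillin oligomers, and lies at chr17:28879335-28897679 on the minus strand. It was at 180.2, 208 and 166 RPM in HuCCT1/CD90- libraries 1, 2 and 3 and at 116.7, 138 and 100.5 RPM in HuCCT1/CD90+ libraries 1, 2 and 3. All HuCCT1/CD90+ libraries lay below all HuCCT1/CD90- libraries. The log2 fold change was -0.64 (SE 0.15, interval from -1.06 to -0.23), a fold of 0.64, which missed the threshold (limma adjusted p = 0.056). It passed with the replicate block (adjusted p = 0.025), with edgeR after filtering (adjusted p = 0.0022) and with DESeq2 (adjusted p = 0.00062). Unlike the caveolins, FLOT2 kept its size relative to its chromosomal neighbours, whose median was -0.03, with -0.62 after that median was taken away (limma adjusted p = 0.069).

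FLOT1, the gene of flotillin-1 at chr6:30727709-30742733 on the minus strand, differed less. Its values were 300.04, 233 and 276 RPM in HuCCT1/CD90- libraries 1, 2 and 3 and 206, 248 and 209.6 RPM in HuCCT1/CD90+ libraries 1, 2 and 3. The ranges overlapped, through HuCCT1/CD90- library 2 and HuCCT1/CD90+ library 2. The log2 fold change was -0.28 (SE 0.13, interval from -0.63 to 0.061, limma adjusted p = 0.24), and the median of its neighbours was -0.21, with -0.079 after that median was taken away. The log2 ratio of FLOT1 to FLOT2 was 0.54 ± 0.33 in HuCCT1/CD90- and 0.90 ± 0.13 in HuCCT1/CD90+ libraries (SD, n = 3 each), a difference of 0.36 (SE 0.21) without overlap (exact permutation p = 0.1, two-sided, and 0.2 adjusted over 6 pairs). Without HuCCT1/CD90- library 2 the difference was 0.17.

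Annotated antisense genes overlap CAV1, CAV2, SDPR and FLOT2, and a noncoding transcript overlaps PRKCDBP on the opposite strand. On the same strand a lincRNA overlaps EHD2 and small RNA genes overlap CAV2 and FLOT1. Whether the counting kept strand is not given in the sources used here, so reads from opposite-strand partners cannot be told apart from those of the genes, and strand would not separate those on the same strand.

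The genes whose profiles over the 6 libraries were closest to CAV1, PTRF and FLOT1 were sought among 8787 genes averaging 10 RPM or more, by the root mean square (RMS) difference of centred log2(RPM + 1). For CAV1 they were RASSF4 (RMS difference 0.036), NR1D2 (0.069) and KLF3 (0.075), which lie on chromosomes 10, 3 and 4. For PTRF they were ZBTB4 (0.018), SRPX2 (0.032) and CTDSP1 (0.035). For FLOT1 they were LOC389906 (0.058), TPM3 (0.059) and ABCB10 (0.060).

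Beyond the 8 genes, 4 lists of 43 further genes of the same membrane domains held 14 DEGs, of which 4 rose and 10 fell. This is 32.6%, against 18.9% of all genes, and the median log2 fold change was 0 in both. Among genes averaging 1 RPM or more it was 13 of 32, or 40.6%, against 29.4%. With the replicate block 7 of the 43 were DEGs, 2 that rose and 5 that fell, or 16.3% against 13.1% of all genes. The count tests gave a more even balance of directions. With edgeR after filtering 19 of 32 tested passed (8 higher and 11 lower), or 59.4% against 44.4% of all genes tested. With DESeq2 18 of 37 tested passed (8 higher and 10 lower), or 48.6% against 37%, and with edgeR unfiltered 21 of 43 (9 higher and 12 lower), or 48.8% against 27.6%. These lists hold caveola accessory proteins, relatives of the flotillins with an SPFH domain, the MAL family of raft proteins and other GPI-anchored proteins.

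Among 12 caveola accessory genes, 2 rose and 3 fell. DNM3, a dynamin (the GTPases that sever membrane necks), was at or under the floor in all HuCCT1/CD90- libraries and at 3.00, 5.01 and 4.02 RPM in HuCCT1/CD90+ libraries 1, 2 and 3, at least 12.5-fold higher (limma adjusted p = 0.0033). The dynamin expressed in most tissues, DNM2, fell from 44.8 ± 4.37 to 20.4 ± 1.26 RPM (SD of 3 libraries; log2 fold change -1.09, limma adjusted p = 0.0034). DNM1, the neuronal dynamin, fell from 44.1 ± 5.36 to 20.8 ± 4.08 RPM (log2 fold change -1.06, limma adjusted p = 0.024). The other DEGs were EHD1, a relative of EHD2, with 0.62 (limma adjusted p = 0.047, and 0.067 with the replicate block), and PACSIN1, which had at most 3 reads in every library (limma adjusted p = 0.043, and 0.17 with the replicate block).

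Of 9 SPFH relatives only ERLIN2, an endoplasmic reticulum protein, was a DEG in limma, with -0.32 (adjusted p = 0.035), and it missed the threshold with the replicate block (0.13), edgeR after filtering (0.093) and DESeq2 (0.11). By the count tests 2 others passed, picked out after their values were seen. STOM, stomatin, had a limma log2 fold change of -0.74 (limma adjusted p = 0.052, and 0.069 with the replicate block, edgeR after filtering 0.0034, DESeq2 0.0022). PHB2, prohibitin-2, had 0.56 (limma adjusted p = 0.11, and 0.16 with the replicate block, edgeR after filtering 0.0076, DESeq2 0.0035). In the MAL family of 4, MAL2, which serves transport to the apical surface of epithelial cells, rose from 77.4 ± 13.4 to 388 ± 57.0 RPM (SD of 3 libraries; log2 fold change 2.31, SE 0.18, limma adjusted p = 0.0033). PLLP, plasmolipin, fell with -0.80 (limma adjusted p = 0.029, and 0.11 with the replicate block). MALL had -0.58 without overlap between the lines (limma adjusted p = 0.11, and 0.18 with the replicate block, edgeR after filtering 0.0047, DESeq2 0.0024), so that 3 of the 4 passed the count tests.

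Of 18 GPI-anchored genes, 1 rose and 5 fell in limma. With edgeR after filtering 4 were higher and 6 lower, and with DESeq2 4 and 5. The further calls, picked out after their values were seen, were MSLN, ALPP and PLAUR, higher by both count tests (edgeR adjusted p = 0.0042, 0.015 and 0.041), and PRNP, lower by edgeR alone (adjusted p = 0.033, against 0.095 with DESeq2). For MSLN, ALPP, PLAUR and PRNP the limma adjusted p was 0.089, 0.32, 0.26 and 0.14. With the replicate block it was 0.071, 0.24, 0.30 and 0.29. The lines overlapped for ALPP and PLAUR, and the highest ALPP value, 324 RPM, was that of HuCCT1/CD90+ library 3. CD14, a co-receptor for lipopolysaccharide, fell from 80.8 ± 10.1 to 4.32 ± 0.195 RPM (SD of 3 libraries; log2 fold change -3.94, SE 0.11, limma adjusted p = 0.00037). LYPD3 fell with -1.83 (limma adjusted p = 0.028) and CD55, an inhibitor of complement, with -1.79 (limma adjusted p = 0.012, and 0.087 with the replicate block). The others were CD109 and RECK, which fell (limma adjusted p = 0.013 and 0.049, and 0.018 and 0.097 with the replicate block), and NT5E (CD73), which rose with 0.69 (limma adjusted p = 0.035, and 0.10 with the replicate block).

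**Figure D4:**
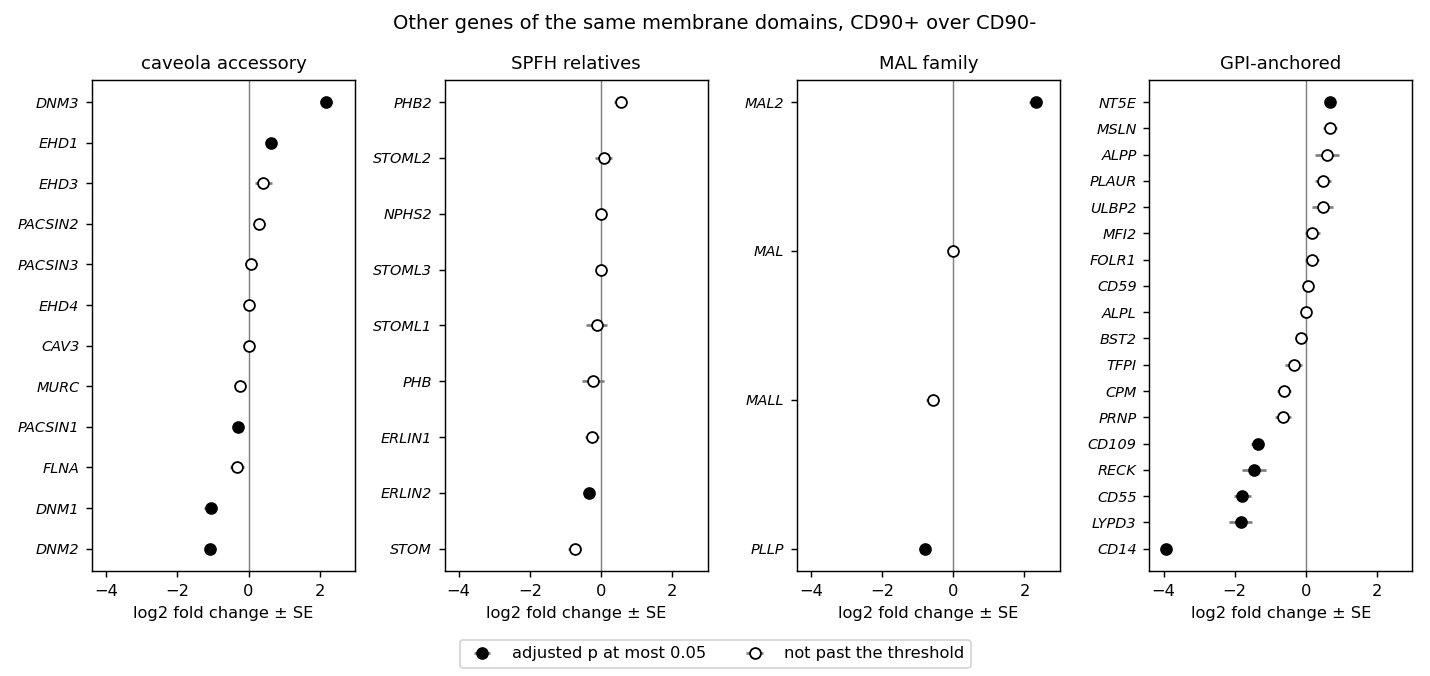
Log2 fold change with its SE of the 43 further genes in 4 panels, HuCCT1/CD90+ over HuCCT1/CD90-, with filled circles for an adjusted p of at most 0.05 in limma and open circles for the rest. CD14 at -3.94 and MAL2 at 2.31 are the points furthest from 0.

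Caveolae are abundant in fibroblasts, endothelium, adipocytes and smooth muscle, so markers of these cells are given beside the caveola genes. The counts of DEGs in each list stand against 18.9% of all genes, and 13.1% with the replicate block. Fibroblast markers summed to 41.8 to 64.9 RPM in the HuCCT1/CD90- libraries, against 20.3 to 24.7 RPM in the HuCCT1/CD90+ libraries, and 5 of 6 were DEGs, all lower. With the replicate block 2 of these, LUM and PDGFRB, passed. COL1A1 hardly differed, at 0.078 in log2 fold change, and made up most of the HuCCT1/CD90+ sum. COL1A2 and COL3A1 had 3 to 13 reads per HuCCT1/CD90- library, against 0 in the HuCCT1/CD90+ libraries. Endothelial markers summed to 14.9 to 23.4 and 1.29 to 1.86 RPM, with 1 DEG of 5, CDH5, which was lower and made up most of the HuCCT1/CD90- sum. PECAM1 had -1.03 without overlap between the lines (limma adjusted p = 0.14, and 0.13 with the replicate block, edgeR after filtering 0.0053, DESeq2 0.015). The list's median log2 fold change was 0.053, but VWF, KDR and TEK had at most 6 reads in any library. Smooth muscle markers summed to 5.78 to 8.77 and 2.50 to 4.19 RPM, with 1 DEG of 3, ACTA2, which was lower (0.095 with the replicate block), and MYH11 and CNN1 at 0.036 and 0.0052 in log2 fold change. Adipocyte markers summed to 0.097 to 0.428 and 0.107 to 0.466 RPM, with 1 DEG of 3, PLIN1, which was higher at 1 to 2 reads per HuCCT1/CD90+ library against 0 (limma adjusted p = 0.031, and 0.090 with the replicate block). Hepatocyte markers summed to 3.59 to 5.89 and 0 to 0.751 RPM (2 of 4 DEGs, both lower, and 1 with the replicate block). Blood markers summed to 46.5 to 55.9 and 83.9 to 100.5 RPM (1 DEG of 3, CD68, which was higher). CD68 made up nearly all of both blood sums, and PTPRC and CD3E had at most 3 reads in any library. The part of these markers in the caveola and flotillin results was not tested.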

How the data were processed

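Total RNA was reverse-transcribed and amplified by the authors with an Ion AmpliSeq Transcriptome panel. Reads were counted by the ampliSeqRNA plugin, and the authors deposited 1 table of RPM values for 20811 genes. The submitters' processing notes name hg19 and the Transcriptome Analysis Console. Each RPM value was a whole multiple of 1 read within 0.0006 RPM, so whole reads were recovered for 100% of values. All library pairs differed beyond sampling noise (chi-square). PCR without molecular identifiers means that floors cover counting error only.

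The lines were compared by limma 3.58.1 under R 4.3.3 (eBayes after lmFit, default settings) on log2(RPM + 1) over all genes, two-sided, with no filter. Fold changes are on this scale, which understates those of low genes. The 3805 genes at 0 in all libraries were kept, and the median total degrees of freedom of the test were 4.45, against 11.2 over the 12062 genes averaging 1 RPM or more. Recovered reads were tested with edgeR 4.0.16 (quasi-likelihood, TMM), which called 5735 genes unfiltered (where the prior degrees of freedom were infinite, which treats all genes as sharing the trend in dispersion) and 5357 of 12070 after filterByExpr, and DESeq2 1.42.0, which called 5326 of 14399, against 3939 with limma. Ratios were tested by exact permutation. Tested on simulated data, each fit recovered the fold sizes, but the unfiltered limma fit called far fewer changed genes than the filtered limma fit, edgeR and DESeq2 and made more false calls. The simulated reads had the same dispersion for all genes and a far smaller share of changed genes than passed here. The outcome therefore does not measure how the fits do on these data.

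Same-numbered libraries of the lines deviated together from their line means (r = 0.21, 0.32 and 0.18 for numbers 1, 2 and 3, and -0.29 to 0.07 for other pairs), so libraries of the same number were treated as pairs in an alternative with a replicate block. The pairing rests on this check, since no label says what the numbers mark. Deviations from a line mean cancel out within the line, so higher r for same numbers pulls r for other pairs down. With 3 libraries per line few other matchings exist, so the check is a weak one.

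For the neighbour alternative, HuCCT1/CD90+ RPM values were divided by the fold at the median of the 50 closest genes on the chromosome that averaged 10 RPM or more. Positions come from GENCODE 29 (GRCh38) by symbol, for 94.27% of genes. They are not on the hg19 build of the deposited table, which holds no coordinates, and amplicon positions were not used here. RefSeq promoter windows were read by symbol, and PTRF and PRKCDBP had no entry.

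The genes named are the 8, THY1, the 3 largest changes among the DEGs of each list, the 3 genes closest in profile to CAV1, PTRF and FLOT1, and the 3 genes on either side of the caveolin pair. Other names were chosen after their values were seen. The 8 genes and all lists were chosen with earlier results of these data known.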

Additional observations from a re-analysis of the deposited data

How the results depend on the processing

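The direction of CAV1, CAV2, PTRF, FLOT1, FLOT2 and EHD2 was the same under every alternative run. The count of DEGs among the 8 genes was not stable. It was 1 with limma and 3 (CAV1 and CAV2 higher, FLOT2 lower) in 7 alternatives, namely a minimum mean of 1 RPM (41.7% of genes tested passed), quantile normalization (19.2%), median centring (24.7%), edgeR without (27.6%) and with a filter (44.4%), DESeq2 (37%), and a fold of at least 1.5 with an unadjusted p of at most 0.05, which 20.1% of all genes met. It was 0 after neighbour medians were subtracted and 0 to 1 with each library left out. It was 0 without HuCCT1/CD90- library 2 or HuCCT1/CD90+ library 1, 2 or 3, CAV1 alone passed without HuCCT1/CD90- library 1, and CAV2 alone without HuCCT1/CD90- library 3. With the replicate block it was 1, FLOT2 in place of CAV2, against 13.1% of all genes. Of the 43 further genes 7 were DEGs with the replicate block and 5 to 11 with each library left out (5 without HuCCT1/CD90+ library 2), against 14, and of all genes 2197 to 2932 (2197 without HuCCT1/CD90+ library 3), against 3939. Signs turned for the log2 fold change of SDPR (-0.43 to 0.29 with each library left out, 0.29 being without HuCCT1/CD90+ library 2) and of PRKCDBP (-0.054 to 0.16 with each library left out, with -0.054 without HuCCT1/CD90- library 1, -0.035 and -0.00042 without HuCCT1/CD90+ libraries 2 and 3, and -0.27 relative to neighbours). They also turned for the log2 ratio of SDPR to PTRF, which was -0.40 with an offset of 0.1 RPM and -0.23 to 0.49 with each library left out. With libraries paired by number, a replicate block added after seeing the data, all differences in ratio had 1 sign in 3 of 3 pairs except SDPR to PTRF (exact sign-flip permutation p = 0.25 for each of the others, the smallest possible). Apart from the alternatives whose construction shows it (fewer genes or fewer libraries), the cause was not tested. SDPR had 1 to 19 reads per library, and its values turn on HuCCT1/CD90+ library 2, which held 1 read.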
